A study of Mus musculus with 9 samples.

Results

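Iron enters most animal cells bound to transferrin. Described here are 9 genes of that route and of its control in mouse embryonic stem (ES) cells in which the transcriptional coactivator Yap1 was raised or lowered: Trf, Tfrc, Steap3, Slc11a2, Aco1, Ireb2, Fbxl5, Hmox1 and Ncoa4. They were picked by symbol, and all 9 were found among the 18504 genes of the deposited table. The choice was made with the results already known, among them high Tfrc and Trf in the libraries labelled as Yap1 knockouts, so the values below are descriptions and carry no test. The 9 RNA-seq libraries, of polyadenylated RNA, all came from J1, an ES cell line of strain 129S4/SvJae, at passage 5 to 7. They were Yap1_OE, which overexpresses Yap1, with its control BirA; Yap1_KO1 and Yap1_KO2, labelled as knockouts, with the control ESC; Yap1_KD1, a Yap1 knockdown, with Control; and dESC_Yap1_KD1, a knockdown in differentiated ES cells, with dESC_control. The labels give neither the vectors nor the edited sequence, nor the way and the time of differentiation. Every group but the knockout-labelled pair is 1 library, so other differences have no replicate check, and whether the pair stems from separate clones or cultures is not given.

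Levels are FPKM, fragments scaled to transcript length and to the mapped fragments of the library, and can be compared between genes because they are per length. Ratios of a library to its control are log2 ratios of FPKM + 1, which understate differences of low genes, and are given only where 1 of the compared libraries reached 1 FPKM. Estimated depths lay between 9.23 M fragments (M, mega) for Yap1_KO1 and 22.4 M for Control. Yap1 RNA was at 139 FPKM in Yap1_OE against 46.7 in BirA, at 4.55 in Yap1_KD1 against 37.4 in Control, and at 12.5 in dESC_Yap1_KD1 against 78.0 in dESC_control. The libraries labelled Yap1_KO1 and Yap1_KO2 kept Yap1 RNA at 57.3 and 27.6 FPKM against 65.4 in ESC, so what follows of them are directions of libraries so labelled. The ES cell markers Pou5f1, Nanog, Sox2, Zfp42 and Esrrb summed to 1162 FPKM in dESC_control and 1580 in dESC_Yap1_KD1, and to between 1910 and 2487 FPKM in the 7 undifferentiated libraries. As a yardstick, Yap1_KO1 and Yap1_KO2 differed from each other by less than 0.374 on the log2 scale, or 1.3-fold, for 95% of the 7877 genes at 5 FPKM or more in both that are not small RNAs. Their median absolute difference over these genes was 0.108. Over all genes that reached 1 FPKM, the median was 0.32 for Control over ESC and 0.208 for BirA over ESC. The yardstick is thus the spread of 1 like-labelled pair and may understate that between other libraries.

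Transferrin, made from Trf, carries ferric iron to the transferrin receptor, made from Tfrc. The complex is taken into endosomes, where the reductase Steap3 turns the iron to its ferrous form and the transporter Slc11a2 moves it into the cytosol. Cytosolic iron is sensed by the iron regulatory proteins, made from Aco1 and Ireb2, which bind stem-loops called iron-responsive elements (IREs) when iron is scarce. Bound in the 3' UTR of Tfrc they protect the RNA from decay, and bound in the 5' UTR of ferritin or ferroportin RNA they block translation. Fbxl5 is the ubiquitin ligase subunit that removes the Ireb2 protein when iron is plentiful. Haem oxygenase, made from Hmox1, frees iron from haem, and Ncoa4 delivers ferritin for breakdown in lysosomes.

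IREs were searched for in the GENCODE transcripts of the 9 genes and of the ferritin genes Fth1 and Ftl1 and the iron exporter Slc40a1 (ferroportin), because they mark which of these RNAs the sensors can bind. The pattern was a C, 5 bases, the loop CAGTG followed by A, C or T, and 5 bases that pair with the first 5, G-U pairs allowed. Of the 9 genes, Tfrc alone held the pattern, with 4 copies in the 3' UTR, and Fth1, Ftl1 and Slc40a1 held 1 copy each in the 5' UTR. Across 21877 coding genes, 0.932% held it in any part of their longest coding transcript, whereas all coding transcripts of the genes above were searched. No match says only that these letters are not there, and elements with another bulge, as known in Slc11a2, are outside the pattern. The copies are printed 5′ to 3′ as DNA on the strand of the gene, in GRCm38 coordinates, with the bulged C and the loop of 6 bases in capitals.
Tfrc, chr16:32631220-32631246, plus strand: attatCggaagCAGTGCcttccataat
Tfrc, chr16:32631599-32631625, plus strand: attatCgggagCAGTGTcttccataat
Tfrc, chr16:32631664-32631690, plus strand: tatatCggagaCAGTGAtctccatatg
Tfrc, chr16:32631711-32631737, plus strand: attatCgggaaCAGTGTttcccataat
Fth1, chr19:9982733-9982759, plus strand: tcctgCttcaaCAGTGCttgaacggaa
Ftl1, chr7:45459780-45459806, minus strand: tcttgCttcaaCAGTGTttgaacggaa
Slc40a1, chr1:45925466-45925492, minus strand: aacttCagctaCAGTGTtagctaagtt

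Trf, the ligand, had the widest range of the 9 genes, 26.4-fold between its lowest and highest library. It stood at 1.53 FPKM in Yap1_OE against 8.13 in BirA, which is 18.8% of that control. In the libraries labelled Yap1_KO1 and Yap1_KO2 it stood at 21.1 and 20.6 FPKM against 7.66 in ESC, a mean 2.72-fold that control. In Yap1_KD1 it was at 7.87 FPKM against 8.89 in Control. Trf was thus low with raised Yap1 and high in the knockout-labelled pair, while the knockdown lay among the controls. The 3 undifferentiated controls spanned only 7.66 to 8.89 FPKM, so these differences were of like size over any of them: Yap1_OE had log2 ratios of -1.97 to -1.78 over the 3 controls, and the knockout-labelled pair of 1.13 to 1.35.

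Differentiated cells held little Trf, at 0.872 FPKM in dESC_Yap1_KD1 against 0.801 in dESC_control. These levels stood for about 29.5 and 39.7 fragments, so a difference between them was not detectable at this depth, and the pair did not reach the 1 FPKM limit. Trf in dESC_control was 9.01% of Control, and in dESC_Yap1_KD1 11.1% of Yap1_KD1. In bulk RNA, fewer cells that make a transcript and less of it per cell cannot be told apart. Visceral endoderm and liver are the usual sources of transferrin in the embryo. Of 9 markers of these cells 7 were in the table, and 2 of them (Amn and Hnf4a) reached 1 FPKM in any library. Their summed level was 2.07 and 1.32 FPKM in the knockout-labelled pair against 2.65 in ESC. The sum was led by Amn, at 0.963 and 0.654 FPKM in the pair against 2.02 in ESC, while Sox17 was at 0.642 and 0.193 FPKM in the pair against 0.141 in ESC and Hnf4a at 0.269 and 0.376 in the pair against 0.244 in ESC. Afp, the defining marker, was at 0.0337 FPKM in ESC and at 0 in the other 8 libraries. The part of such cells in the Trf difference was not tested. A transcript annotated as Gm20425 shares 1517 bases with Trf, and reads of the pair may be mixed in these values.

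Tfrc, the receptor, was at 65.1 and 66.2 FPKM in the libraries labelled Yap1_KO1 and Yap1_KO2 against 26.4 in ESC, a mean of 65.6 ± 0.758 FPKM (SD, n = 2) and 2.49-fold the control. Yap1_KD1 had 88.4 FPKM against 65.9 in Control. Among differentiated cells, dESC_Yap1_KD1 had 49.3 FPKM against 31.3 in dESC_control. Each of the 4 libraries labelled for loss of Yap1 was thus above its own control, and Yap1_OE, at 37.0 FPKM against 37.7 in BirA, was not apart from its control. Tfrc was the only one of the 9 genes at least 1.25-fold higher in all 4, a fold chosen after the values were seen. Of 12871 genes, 0.381% were. Without the knockout-labelled pair Tfrc could not drop out, and no other member joined it, against 2.75% of genes.

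The size of the Tfrc difference rested on the control. Unlike Trf, Tfrc ranged from 26.4 FPKM in ESC through 37.7 in BirA to 65.9 in Control, a 2.5-fold span between libraries with no change of Yap1 in their labels. Over Control, the libraries labelled Yap1_KO1 and Yap1_KO2 had log2 ratios of -0.02 and 0.01, against 1.27 and 1.29 over ESC. Over BirA they had 0.77 and 0.80. Ordered by level, Control lay between Yap1_KO1 and Yap1_KO2, which were 0.023 apart on the log2 scale, and Yap1_KD1 lay 0.413 above the upper of them. Control was paired with the knockdown here, but its label reads only Control and does not name the knockdown. The cause of the gap between the controls was not tested.

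**Figure D1:**
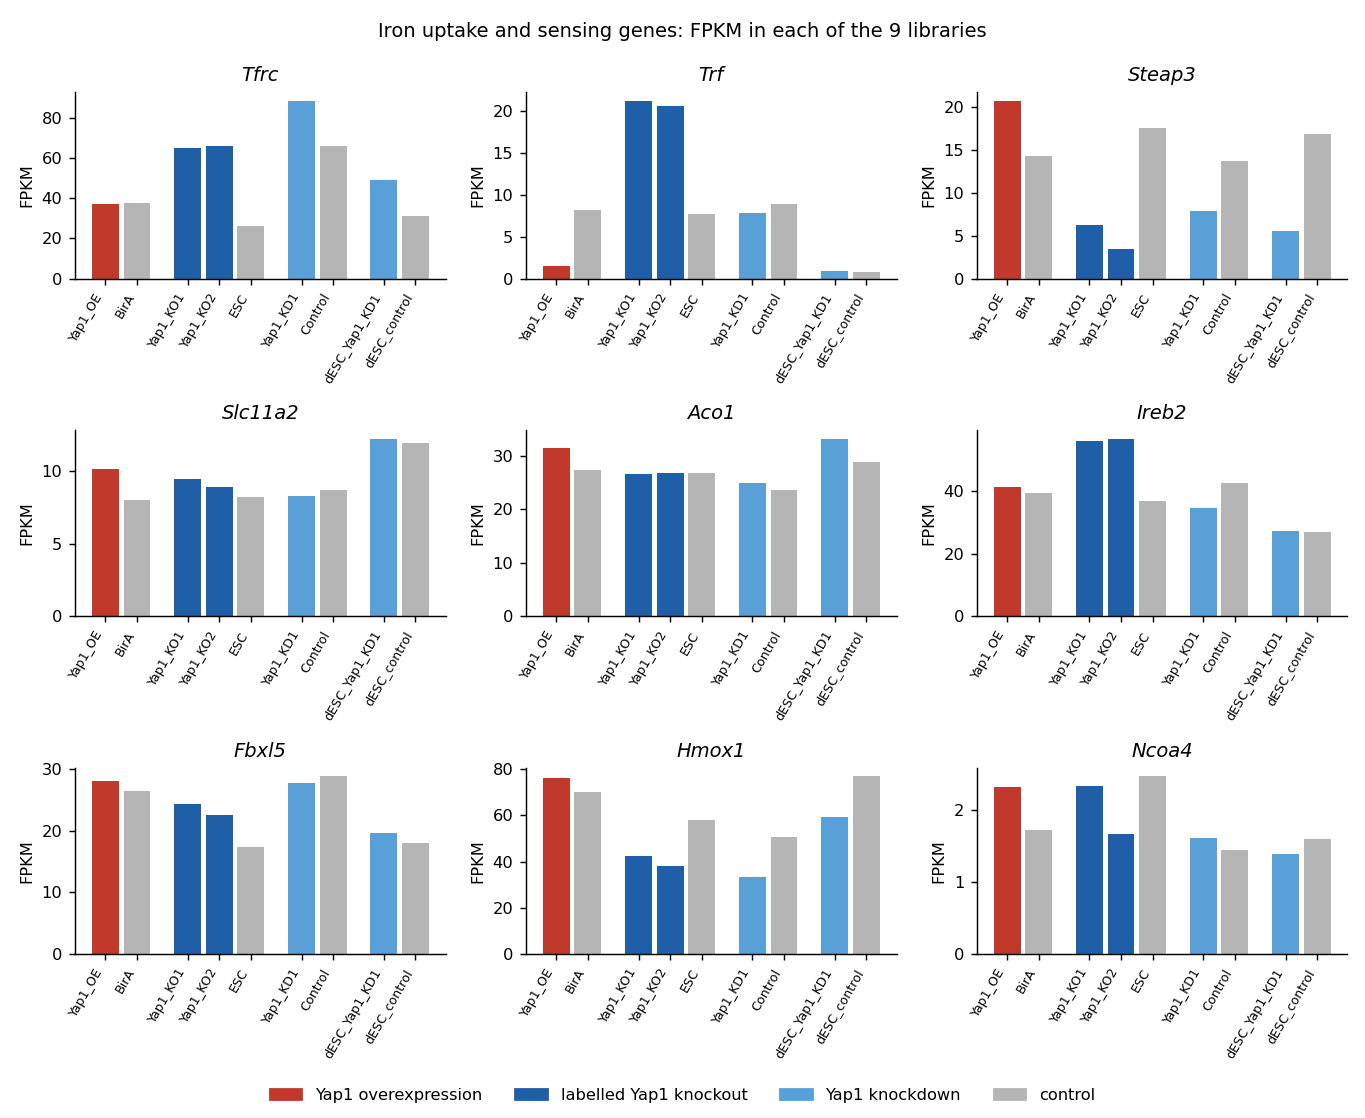
Level of each of the 9 genes in FPKM (y axis, from 0, a different scale for each gene) in the 9 libraries (x axis), 1 bar per library, with each control in grey to the right of the libraries it belongs to. Tfrc is higher and Steap3 and Hmox1 are lower in each library labelled for loss of Yap1 than in its own control, and Tfrc in Control (65.9 FPKM) lies between the libraries of the knockout-labelled pair.

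**Figure D2:**
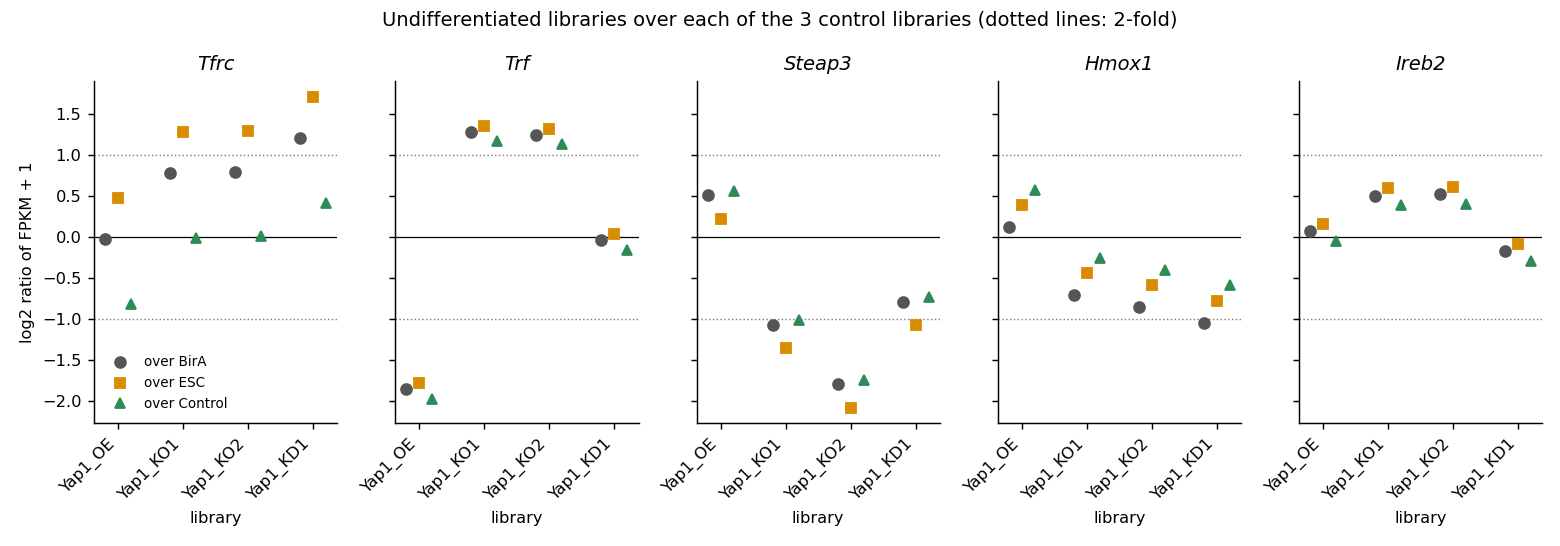
Log2 ratio of FPKM + 1 (y axis) of the 4 undifferentiated libraries with changed Yap1 (x axis) over each of the 3 undifferentiated controls, shown as separate symbols, for 5 genes. The symbols lie close together for Trf and Ireb2 and far apart for Tfrc, where the knockout-labelled pair runs from about 0 over Control to 1.29 over ESC.

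Steap3, the endosomal reductase, was the only member whose levels separated the libraries labelled for loss of Yap1 from all others. It was at 6.26 and 3.41 FPKM in the libraries labelled Yap1_KO1 and Yap1_KO2 against 17.6 in ESC. It was at 7.85 FPKM in Yap1_KD1 against 13.7 in Control, and at 5.51 FPKM in dESC_Yap1_KD1 against 16.9 in dESC_control. Those 4 libraries were the 4 lowest of the 9, and the highest was Yap1_OE, at 20.7 FPKM against 14.3 in BirA. No other member separated these 4 libraries from the other 5 below or above, where 0.552% of 12871 genes were below in all 4 and 0.357% above. Leaving out the knockout-labelled pair could not remove Steap3, only add members, and it added none. The 2 knockdown libraries were below the 5 others for Steap3 alone among the members, against 2.7% of genes, and above them for 0 members, against 2.52%.

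The 2 knockout-labelled libraries differed from each other for Steap3 by 0.72 on the log2 scale, with a mean of 4.84 ± 2.02 FPKM (SD, n = 2). That is above the yardstick, but the yardstick covers genes at 5 FPKM or more in both. Steap3, at 3.41 FPKM in Yap1_KO2, is not among them. The library of the pair with less Yap1 RNA, Yap1_KO2, had less Steap3. That order did not hold among all libraries labelled for loss of Yap1: Yap1_KD1 had the least Yap1 RNA, 4.55 FPKM, and the most Steap3, 7.85 FPKM. The undifferentiated controls lay between 13.7 and 17.6 FPKM, so the pair was at least 2-fold lower over each of them, with log2 ratios from -2.08 to -1.01. The knockdown had log2 ratios of -1.07 to -0.73 over the same 3 controls. In dESC_Yap1_KD1 Steap3 was 32.7% of its control and in Yap1_KD1 57.4%; the difference between these effects was not tested. Steap1, a metalloreductase of the same family, was at 6.22 FPKM in dESC_Yap1_KD1 against 20.2 in dESC_control, and Steap2, another, at 1.72 in dESC_Yap1_KD1 against 3.98 in dESC_control.

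RefSeq promoter windows of GRCm38 were found for 5 of the 9 genes, Tfrc, Steap3, Aco1, Ireb2 and Ncoa4, in 11 windows of 250 bases upstream of a start. GGAATG, the core bound by the TEAD partners of Yap1, was in 0 of the 11 on either strand, and in 12.6% of all 32851 windows. ACGTG or GCGTG, the core of hypoxia response elements, was in 5 of them (Tfrc, Steap3 and Ncoa4) and in 38.6% of all. CACGTG, an E-box that overlaps ACGTG, was in 0 of the 11 and in 6.02% of all. These are matches of letters and say nothing of binding.

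Slc11a2, the endosomal iron transporter, varied little, between 8.02 and 12.2 FPKM over the 9 libraries. The knockout-labelled pair had 9.46 and 8.89 FPKM against 8.23 in ESC, and Yap1_KD1 had 8.31 against 8.68 in Control. The 7 undifferentiated libraries lay within 8.02 to 10.2 FPKM, and dESC_Yap1_KD1 with 12.2 and dESC_control with 11.9 were above all of them. The gap between the lower of these and Yap1_OE, the next in order, was 0.209, within the yardstick. Steps between neighbouring libraries were smaller still elsewhere in that order.

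Of the sensors, Aco1, whose protein is an aconitase when it holds an iron-sulfur cluster and an RNA-binding regulator when it does not, was the steadiest of the 9. It ranged 1.4-fold, between 23.7 FPKM in Control and 33.2 in dESC_Yap1_KD1, with 26.7 and 26.8 in the libraries labelled Yap1_KO1 and Yap1_KO2 against 26.7 in ESC. Ireb2, the regulator that is destroyed when iron is plentiful, was at 56.1 and 56.8 FPKM in that pair against 36.8 in ESC, above the other 7 libraries. In Yap1_KD1 Ireb2 was at 34.7 FPKM against 42.7 in Control, a log2 ratio of -0.29 in the other direction and within the yardstick. In differentiated cells it was at 27.2 FPKM in dESC_Yap1_KD1 against 27.0 in dESC_control, and both lay below all undifferentiated libraries. Fbxl5, which targets the Ireb2 protein, was at 24.3 and 22.5 FPKM in the knockout-labelled pair against 17.3 in ESC. ESC was the lowest library for Fbxl5, and over BirA and Control the pair had log2 ratios of -0.34 to -0.11.

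The GC content of transcripts moved with the ratios of the knockout-labelled pair. Over 7944 genes that averaged at least 5 FPKM, the log2 ratio over ESC and GC content had a Spearman correlation of -0.63 for Yap1_KO1 and -0.64 for Yap1_KO2, computed across genes, which are not independent replicates. Ireb2 (39.0% GC), Tfrc (39.8%) and Fbxl5 (41.6%) had at most 7.6% of these genes below them in GC content. Trf (52.5%), Steap3 (52.8%) and Hmox1 (53.3%) were above the median. With the trend removed, the log2 ratio of Tfrc over ESC was 0.86 in place of 1.28, that of Ireb2 0.15 in place of 0.60, and that of Fbxl5 0.06 in place of 0.41. Those of Trf and Steap3 were 1.41 and -1.63, in place of 1.34 and -1.72. For Yap1_KD1 over Control that correlation was 0.2, and Tfrc had 0.495 with the trend removed, in place of 0.42. The controls also differed by GC content, with correlations of -0.341 for Control over ESC, -0.352 for Control over BirA and -0.172 for BirA over ESC.

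**Figure D3:**
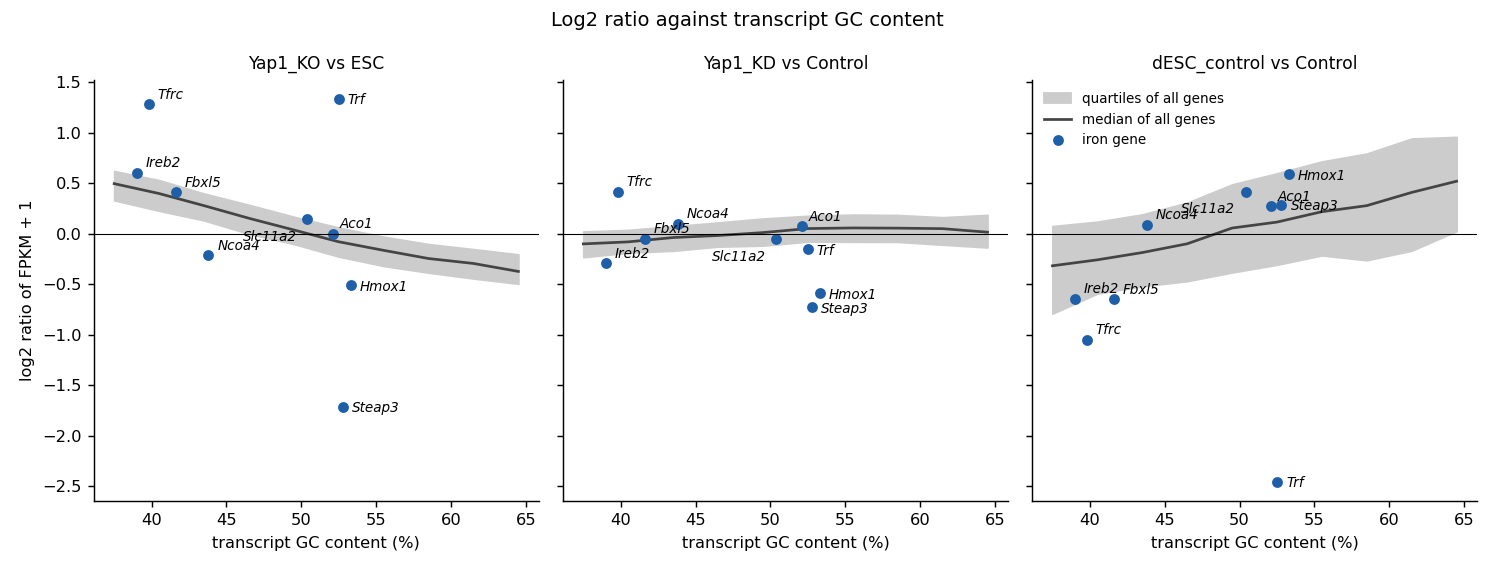
Log2 ratio of FPKM + 1 (y axis) against transcript GC content in percent (x axis) for 3 comparisons, with the median and quartiles of all genes that averaged at least 5 FPKM in bins of 3 percentage points (line and band) and the 9 iron genes as points. In the knockout-labelled pair over ESC, Ireb2 and Fbxl5 lie on or near the band of genes of like GC content, and Tfrc, Trf and Steap3 lie far from it.

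Hmox1, which frees iron from haem, was at 42.6 and 38.3 FPKM in the libraries labelled Yap1_KO1 and Yap1_KO2 against 58.0 in ESC, and at 33.5 FPKM in Yap1_KD1 against 50.9 in Control. In differentiated cells it was at 59.3 FPKM in dESC_Yap1_KD1 against 76.9 in dESC_control. All 4 were below their own controls, at 65.8% to 77.1% of them by comparison, and the difference in differentiated cells, -0.37 on the log2 scale, was within the yardstick. Among undifferentiated libraries those 3 lay below the other 4, as they did for Steap3. Of 12871 genes 4.26% did so, and 3.38%, with 0 members, lay above. Steap3 and Hmox1 were the 2 of the 9 genes at least 1.25-fold lower in all 4 libraries, against 0.956% of all genes. Without the knockout-labelled pair these 2 could not drop out, and no other member joined them, against 3.15% of genes. Yap1_OE, at 76.2 FPKM of Hmox1 against 70.1 in BirA, lay within the yardstick. In dESC_control Hmox1 was 1.51-fold Control, and in dESC_Yap1_KD1 1.77-fold Yap1_KD1. Over BirA, at 70.1 FPKM, the log2 ratio of dESC_control was 0.13 in place of 0.59, and over ESC it was 0.40.

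Ncoa4, the ferritin cargo receptor, had low levels throughout, between 1.39 and 2.46 FPKM, and Trf was below it in Yap1_OE and in both differentiated libraries. Its highest library was ESC, with 2.33 and 1.66 FPKM in the knockout-labelled pair. These levels stood for about 74.6 to 207 fragments. A near-identical copy annotated as Gm6768 shares 1878 bases with Ncoa4 at 95% identity or more, so reads may have been split between them and its level is uncertain. None of the comparisons put it 1.5-fold apart on the log2 scale used.

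At a limit of 2-fold on that scale, 2 of the 9 genes (Tfrc and Trf) were higher and 1 (Steap3) lower in both knockout-labelled libraries than in ESC. Of 11538 genes, 0.191% were higher and 0.979% lower by that rule; the contrast helped to choose the genes, so nothing is read from this. In Yap1_OE over BirA 0 were higher and 1 (Trf) lower, with 1.6% and 2.35% of 11599 genes. In Yap1_KD1 over Control 0 were higher or lower, with 0.506% of 11861 genes each way. In dESC_Yap1_KD1 over dESC_control 0 of the 8 genes that reached the limit of 1 FPKM were higher and 1 (Steap3) lower, with 1.71% and 4.77% of 11845 genes. The median log2 ratio of the members was 0.14 in the knockout-labelled pair, 0.12 in Yap1_OE, -0.06 in Yap1_KD1 and 0.02 in dESC_Yap1_KD1, and that of all genes was between -0.011 and 0.019, with members on both sides of 0 in each comparison. At 1.5-fold, 0 members were higher and 2 lower in Yap1_KD1, with 2.2% and 2.02% of genes, and in dESC_Yap1_KD1 over dESC_control 1 was higher and 1 lower, with 5.49% and 10.9%.

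**Figure D4:**
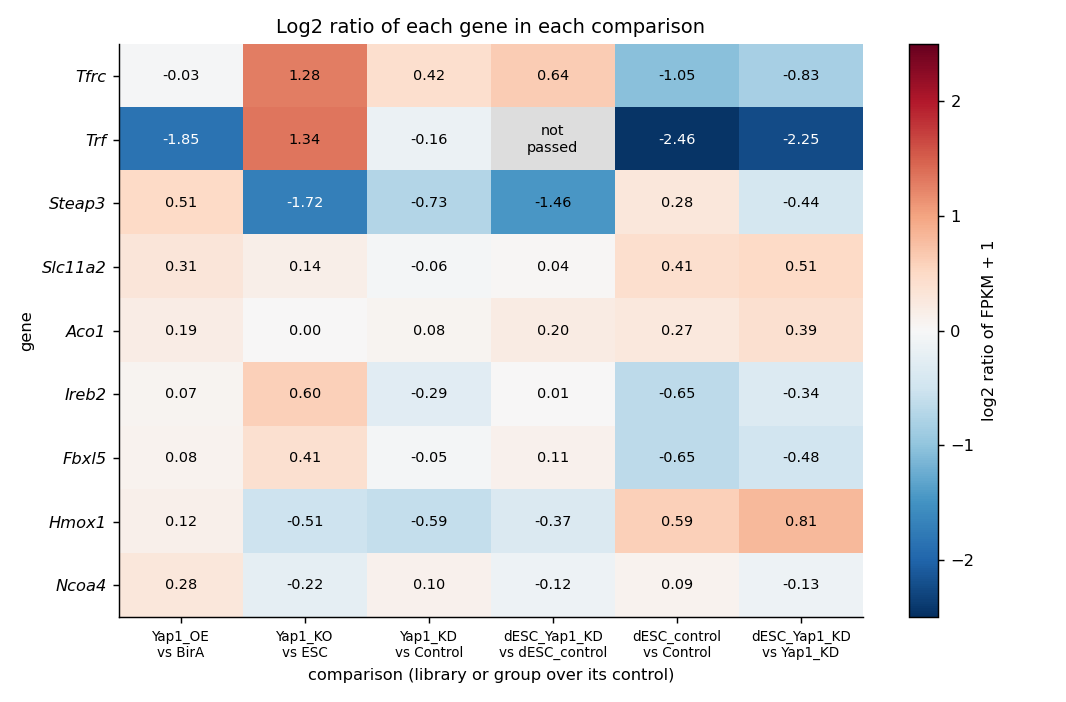
Log2 ratio of FPKM + 1 of each gene (rows) in 6 comparisons (columns), each a library or group over the one named after it, with the value printed and the colour scale from -2.5 (blue) to 2.5 (red). Steap3 has its lowest ratios in the 3 comparisons that lower Yap1 or are labelled as knockout, and Trf in Yap1_OE and in both comparisons of differentiated with undifferentiated cells.

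Differentiation was read from the controls and from the knockdown libraries. Tfrc was at 31.3 FPKM in dESC_control against 65.9 in Control, and at 49.3 in dESC_Yap1_KD1 against 88.4 in Yap1_KD1. Over the other undifferentiated controls dESC_control was not low for Tfrc: ESC had 26.4 FPKM and BirA 37.7. Tfrc and Trf were the 2 members at least 2-fold lower in dESC_control, against 10.1% of 12436 genes, and 0 were higher, against 13.1%. In dESC_Yap1_KD1 over Yap1_KD1, 1 member (Trf) was at least 2-fold lower, against 10.4% of 12281 genes, and 0 higher, against 10.3%. At 1.5-fold, 1 was higher and 4 lower in dESC_control, with 24.7% and 21.1% of genes, and 1 was higher and 2 lower in dESC_Yap1_KD1 over Yap1_KD1, with 21.8% and 21.4%. Markers of differentiation (T, Mixl1, Krt8, Krt18, Gata4 and Gata6) summed to 191 FPKM in dESC_Yap1_KD1 against 1404 in dESC_control, and to 195 FPKM in Yap1_OE against 26.0 in BirA. Most of each sum was the keratins Krt8 and Krt18, at 63.4 and 130 FPKM in Yap1_OE against 7.32 and 17.4 in BirA. T was at 0.0465 FPKM in Yap1_OE against 0.105 in BirA, and Gata4 was at 1.43 FPKM in both differentiated libraries. Trf was low in each of these 3 libraries, and the part of that in the result was not tested. The comparisons of differentiation share libraries with those of the knockdown.

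Storage and export genes lie on the other side of iron handling. Fth1 and Ftl1, which make the ferritin chains, were the most abundant iron genes, and 7 annotated copies of Ftl1 make its value uncertain. Fth1 was at 689 FPKM in each knockout-labelled library against 772 in ESC, at 670 in Yap1_KD1 against 701 in Control, and at 785 in dESC_Yap1_KD1 against 565 in dESC_control. Ftl1 was at 1160 and 951 FPKM in the knockout-labelled pair against 1138 in ESC, and at 1869 in dESC_Yap1_KD1 against 1285 in dESC_control. The exporter Slc40a1 was at 18.1 FPKM in dESC_Yap1_KD1 against 1.26 in Yap1_KD1, and at 15.0 FPKM in dESC_control against 1.07 in Control. In Yap1_OE it was at 3.20 FPKM against 0.891 in BirA. Slc40a1 was thus high where Trf was low. Pcbp1, a chaperone that loads iron into ferritin, was at 243 FPKM in dESC_Yap1_KD1 against 120 in Yap1_KD1, but ESC, with 229.5 FPKM, was nearly as high. Of 10 storage and export genes 8 were in the table. In Yap1_OE 1 of 5 that reached 1 FPKM was at least 2-fold higher and 0 lower, against 1.6% and 2.35% of all genes. In Yap1_KD1 0 of 5 were past 2-fold, against 0.506% each way. In the knockout-labelled pair 0 of 4 were, against 0.191% higher and 0.979% lower. In dESC_Yap1_KD1 over dESC_control 0 of 5 were, against 1.71% higher and 4.77% lower. Of the transcripts with IREs, Tfrc had a log2 ratio of 1.28 in the knockout-labelled pair over ESC. Fth1 had -0.17 and Ftl1 -0.12 there, both within the yardstick. The IREs of ferritin RNA act on translation, which RNA levels do not show, and control by IREs was not tested.

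For other import genes and mitochondrial genes that use iron, counts past 2-fold in the Yap1 comparisons are to be read beside the 0.191% to 4.77% of all genes past it in each direction. Of 17 receptor regulators and other importers 15 were in the table. Of 7 that reached 1 FPKM in dESC_Yap1_KD1 or dESC_control, 1 (Steap1) was at least 2-fold lower and 0 higher, and 0 of 7 were past that limit in Yap1_OE, 0 of 7 in the knockout-labelled pair and 0 of 9 in Yap1_KD1. Of 21 genes of mitochondrial iron, iron-sulfur clusters and haem, 20 reached 1 FPKM in each comparison, and 1 was past 2-fold in a Yap1 comparison. It was Glrx5, a glutaredoxin that hands on iron-sulfur clusters, at 43.4 FPKM in Yap1_KD1 against 95.3 in Control. Glrx5 was also at 75.5 and 72.6 FPKM in the knockout-labelled pair against 102 in ESC, and at 70.7 in dESC_Yap1_KD1 against 110 in dESC_control.

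On differentiation more of these genes were past 2-fold, as were more of all genes, 13.1% higher and 10.1% lower in dESC_control over Control. Among importers, Steap1 was at 20.2 FPKM in dESC_control against 8.56 in Control, Steap2 at 3.98 in dESC_control against 1.20 in Control, and the metal transporter Slc39a8 at 3.70 in dESC_control against 0.231 in Control. Tfr2, a second transferrin receptor that senses iron in liver, was at 0.19 FPKM in dESC_control against 1.42 in Control, and at 0.357 in ESC and 0.714 in BirA. Slc39a8 and Tfr2 were past 2-fold in the same directions in dESC_Yap1_KD1 over Yap1_KD1. Of the mitochondrial genes, the cluster co-chaperone Hscb was at 18.4 FPKM in dESC_control against 52.3 in Control, and at 26.5 in dESC_Yap1_KD1 against 55.1 in Yap1_KD1, but ESC, an undifferentiated control, had 26.9 FPKM. Isca2, a cluster assembly protein, was at 12.7 FPKM in dESC_Yap1_KD1 against 29.6 in Yap1_KD1, but the controls alone spanned 11.1 FPKM in ESC to 27.9 in Control. Cdc14a, a phosphatase whose RNA can carry an IRE in human cells, was at 3.19 FPKM in dESC_Yap1_KD1 against 0.693 in Yap1_KD1.

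**Figure D5:**
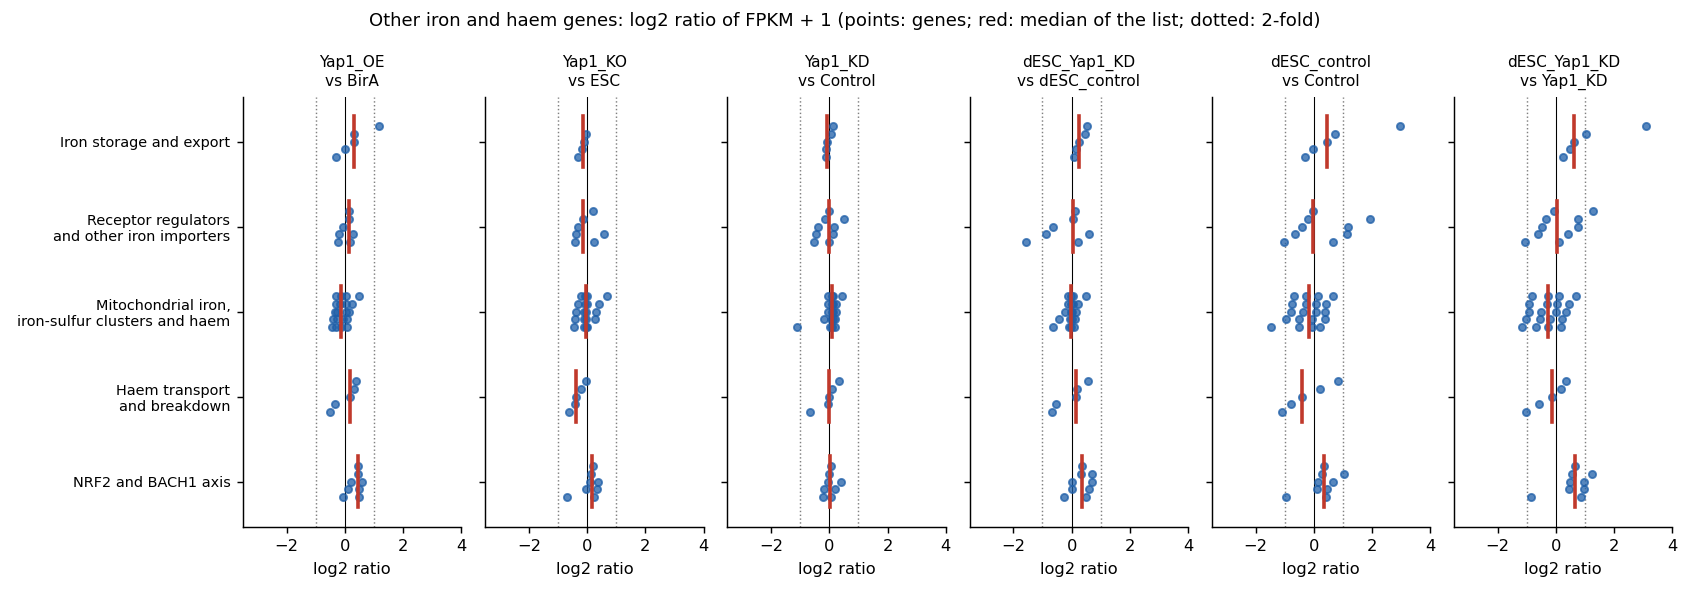
Log2 ratio of FPKM + 1 (x axis) of the genes of 5 other iron and haem lists (rows; 1 point per gene that reached 1 FPKM, with the list median in red) in 6 comparisons (panels). Points carry no names: the one farthest right in both comparisons of differentiation is Slc40a1, the one farthest left in Yap1_KD over Control is Glrx5, and the one farthest left in dESC_Yap1_KD over dESC_control is Steap1.

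Genes known to act on Tfrc transcription were set beside it. Myc was at 36.8 and 48.8 FPKM in the knockout-labelled pair against 49.8 in ESC, and at 8.25 FPKM in Yap1_KD1 against 9.97 in Control, with 19.1 in BirA. It was lowest in Yap1_KD1 and Control. Tfrc was high in these and in the knockout-labelled pair, and the part of Myc in this was not tested. Epas1, a hypoxia-inducible factor whose own RNA carries an IRE, was at 23.4 and 25.9 FPKM in the knockout-labelled pair against 15.4 in ESC, with a log2 ratio of -0.08 in Yap1_KD1 over Control, and at 4.82 in dESC_Yap1_KD1 against 1.53 in dESC_control. Hif1a was at 36.5 and 40.3 FPKM in the knockout-labelled pair against 27.3 in ESC, and at 17.8 in Yap1_KD1 against 21.4 in Control. On differentiation Myc was at 37.1 FPKM in dESC_control against 9.97 in Control, within the span of the undifferentiated controls, and Hif1a at 39.0 in dESC_Yap1_KD1 against 17.8 in Yap1_KD1. Of the 4 regulators, with Arnt, 0 were past 2-fold in the knockout-labelled pair, against 0.191% of all genes higher and 0.979% lower. In Yap1_KD1 0 were, against 0.506% each way, and in Yap1_OE 0, against 1.6% and 2.35%. In dESC_Yap1_KD1 over dESC_control 1 (Epas1) was higher and 0 lower, against 1.71% and 4.77%. Erythroid precursors are rich in transferrin receptor. Of 8 erythroid markers 5 were in the table, and they summed to 3.84 and 5.20 FPKM in the knockout-labelled pair against 4.99 in ESC, and to 7.48 in Yap1_KD1 against 7.71 in Control. Feeder fibroblast markers, all 6 in the table, summed to 39.7 and 32.2 FPKM in the knockout-labelled pair against 19.6 in ESC, nearly all of it Thy1, at 39.2 and 32.0 FPKM in the pair against 18.7 in ESC. The fibroblast collagen Col1a1 was at 0.453 and 0.132 FPKM in the pair against 0.832 in ESC. Of 6 macrophage markers 4 were in the table, and their sum was nearly all Cd68, at 38.9 FPKM in Yap1_KD1 against 24.9 in Control, while Ptprc, the defining one, was at 0 in both. In the knockout-labelled pair Cd68 was at 20.54 and 21.25 FPKM against 23.4 in ESC. Thy1 was thus higher along with Tfrc in the pair, and Cd68 in Yap1_KD1 but not in the pair. Their part in the result was not tested.

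Genes with profiles like those of the members were ranked over the 9 libraries by the root-mean-square difference of centred log2(FPKM + 1), among 9562 other genes that reached 5 FPKM in any library. Closest to Tfrc were Gyk, a glycerol kinase, Cdkn1b, a cell cycle inhibitor, Fcho2, a protein of clathrin-coated pits, Gm17066 and Mettl20, with differences of 0.25 to 0.28 against 0.54 for the Tfrc profile itself. Cdkn1b was at 26.6 FPKM in Yap1_KD1 against 23.2 in Control, and at 20.6 and 19.0 in the knockout-labelled pair against 12.6 in ESC. Closest to Trf were Slfn9, Hal, a histidine ammonia lyase, Tet2, an enzyme of DNA demethylation, Atp2a3, a calcium pump, and Tns1, with differences of 0.29 to 0.39 against 1.32. Tet2 was at 5.55 FPKM in Yap1_OE against 14.8 in BirA, at 32.4 and 31.0 in the knockout-labelled pair against 19.4 in ESC, and at 1.34 in dESC_control. Steap3 was added to this ranking after its values were seen. Closest to it were Arhgdib, A4galt, Fam13c, Pvr and Pim1, with differences of 0.29 to 0.40 against 0.76. Arhgdib was at 3.42 and 3.08 FPKM in the knockout-labelled pair against 9.09 in ESC, and at 1.68 in dESC_Yap1_KD1 against 10.7 in dESC_control. The serine kinase Pim1 was at 30.5 and 30.4 FPKM in the knockout-labelled pair against 79.7 in ESC, and at 14.3 in dESC_Yap1_KD1 against 63.4 in dESC_control. The likeness is of values only, with libraries of unequal depth.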

How the data were processed

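The authors deposited 1 table with a column of FPKM values per library. TopHat2, Cuffdiff and the build mm9 are named, per the submitters' processing notes; the sources used here give no versions, annotation or strand setting. The unit is not written in the table and was taken from Cuffdiff. Cuffdiff may scale libraries against each other. Of 23277 rows, 4746 were blank and 27 carried symbols turned into dates, which left 18504 genes, 172 of them small RNAs. Columns were matched to samples by title.

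Members, lists and comparisons were chosen with earlier results of these data known. Log2 ratios used a pseudocount of 1 FPKM, a limit of 1 FPKM in at least 1 library compared, and 2-fold as the call. No test was made, since the members were chosen from these results and all groups but one have 1 library. The rule for named genes took all 9 members, the genes past 2-fold in each list, Fth1, Ftl1, Slc40a1 and Myc, and the 5 closest profiles of Tfrc and Trf. Other genes, the 1.25-fold limit and the counts of separated libraries were chosen after their values were seen. Depth was estimated from the steps between low FPKM values, against BirA, with 174 long genes setting the scale (quartiles 12.6 to 14.8 M fragments), and is an effective depth. GC content, length and IREs came from GENCODE M21 transcripts on GRCm38, another build than mm9, so GC and length belong to the longest coding transcript there. The GC trend was removed by lowess over genes at 5 FPKM or more. Counting, depth, GC and IRE scripts were tested on simulated data. Python 3.11.15, pandas 2.3.3 and statsmodels 0.14.6 were used.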

Additional observations from a re-analysis of the deposited data

How the results depend on the processing

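The counts of members at least 2-fold apart were recomputed with pseudocounts of 0.1 and 5, no filter, a filter at 5 FPKM, without small RNA rows, centred on the median of all genes, with the GC trend removed, at 1.5-fold and with other control libraries. For the knockout-labelled pair the count was 3. It was also 3 without either replicate, but a call needed both libraries, so leaving 1 out could add members and not remove them. The count was 2 (without Tfrc) with the GC trend removed or with BirA or Control as control. With Control in its place the log2 ratio of Tfrc was -0.007. In Yap1_KD1 over Control the count was 0, and 2 at 1.5-fold (Steap3 and Hmox1), 2 over ESC (Tfrc and Steap3) and 2 over BirA (Tfrc and Hmox1). In dESC_Yap1_KD1 over dESC_control the count of 1 became 2 at 1.5-fold, with Tfrc. In dESC_control over Control the count of 2 became 5 at 1.5-fold, and 1 (Trf) with a pseudocount of 5, with the GC trend removed, over ESC or over BirA; over ESC the log2 ratio of Tfrc was 0.24. In dESC_Yap1_KD1 over Yap1_KD1 the count of 1 became 3 at 1.5-fold. Of 302 ratios of single members under settings that can move a ratio, 182 moved by less than the typical spread of the knockout-labelled pair (0.076, SD), 118 moved by more, and 2 called ones changed sign. With those not called, 30 changed sign. Leaving out the knockout-labelled pair, an alternative chosen after seeing the data, could not remove a member below or above in all loss libraries, and it added none. No paired analysis was possible because the groups compared share fewer than 2 replicate numbers and no test was made.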

Other observations

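Genes of haem handling and of the NRF2 and BACH1 axis, which controls Hmox1 transcription, were not described above. Of 8 haem transport and breakdown genes 6 were in the table, and 0 of the 5 that reached 1 FPKM were at least 2-fold apart in any Yap1 comparison, where 0.191% to 4.77% of all genes were in each direction. Hmox2, the constitutive haem oxygenase, chosen after its values were seen, was at 23.8 FPKM in Yap1_KD1 against 38.0 in Control and at 27.2 in dESC_Yap1_KD1 against 44.3 in dESC_control, while the knockout-labelled pair had 38.9 and 37.9 against 39.7 in ESC. Blvra, a biliverdin reductase, was at 9.14 FPKM in dESC_control against 20.7 in Control, and at 10.3 in dESC_Yap1_KD1 against 22.0 in Yap1_KD1, but BirA had 11.8 FPKM. Of 9 genes of the NRF2 and BACH1 axis, of which 8 or 9 reached 1 FPKM by comparison, 0 were at least 2-fold apart in a Yap1 comparison. Bach1, the haem-sensing repressor of Hmox1, also chosen after its values were seen, was at 24.0 FPKM in dESC_Yap1_KD1 against 14.2 in dESC_control, and at 12.6 in Yap1_KD1 against 10.9 in Control. The list median in Yap1_OE over BirA was 0.44, with 0.02 for all genes. It was 0.344 in dESC_Yap1_KD1 over dESC_control, with -0.011 for all genes. In the knockout-labelled pair it was 0.167, with 0.006 for all genes, and in Yap1_KD1 0.01, with 0.009. The list median was thus not above that of all genes in Yap1_OE only. Gclm, a subunit of the enzyme that starts glutathione synthesis, was at 62.8 FPKM in Yap1_OE against 41.4 in BirA. It was at 73.1 FPKM in dESC_Yap1_KD1 against 30.8 in Yap1_KD1 and 44.2 in dESC_control. The log2 ratio of Gclm was 0.71 in dESC_Yap1_KD1 over dESC_control. In dESC_control over Control it was 0.29, within the yardstick, so the gap between the knockdown libraries was not seen at that size between the controls. On differentiation Keap1, the brake on NRF2, was at 17.1 FPKM in dESC_control against 7.90 in Control, with 12.3 in ESC.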
